A study of Mus musculus with 10 samples.

Results

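The neurotrophins, glial cell line-derived neurotrophic factor (GDNF) and their receptors were followed in mouse retinas after light damage. The 8 genes were taken by name from the gene table: the ligands *Bdnf*, *Ntf3* and *Gdnf*, the receptor tyrosine kinases *Ntrk2* and *Ntrk3*, the p75 receptor gene *Ngfr*, the sortilin gene *Sort1* and the GDNF co-receptor gene *Gfra1*. All 8 were found among the 54532 genes of the table, once each, and all 8 were among the 24508 genes tested. The neural retinas of BALB/c mice aged 2 months, 10 in all, were measured by RNA-seq. BALB/c is a white laboratory strain with unpigmented eyes, and the study describes it as sensitive to light. By the study it is also wild type for the gene *Rpe65*, a variant of which makes another strain more resistant to light damage. All mice were first kept 12 hr in the dark. The 5 light-damaged (LD) retinas came from mice exposed to 15000 lux for 1 day, and the 5 normal light (NL) retinas from mice that the labels place under 200 lux. Both groups share the albino mutation of the strain, the labels name no transgene or drug for either, and they do not give the sex of the mice.

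Neurotrophins are secreted proteins that keep neurons alive and shape their synapses. Brain-derived neurotrophic factor (BDNF) binds the receptor TrkB, the product of *Ntrk2*, and neurotrophin 3 binds TrkC, the product of *Ntrk3*. Mature neurotrophins signal through these kinases, whereas the uncleaved proneurotrophins bind the p75 receptor together with sortilin and can promote cell death. GDNF acts through its co-receptor GFRA1 and the kinase RET. In the retina, ganglion cells depend on BDNF brought back from the brain, Muller glia carry neurotrophin receptors, and BDNF and GDNF given from outside delay the loss of photoreceptors in animal models.

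*Bdnf* is read from many alternative first exons, so that its single value in the table sums several promoters. The RefSeq promoter table (GRCm38.p6, 250 bases before to 50 bases after a start) held 14 windows for 6 of the 8 genes, 7 of them for *Bdnf*, and none for *Ntrk3* or *Sort1*. The 3 *Bdnf* windows that hold a searched motif are shown because they show how unlike the starts are that share one value, and those of *Ntrk2* and *Ngfr* because these genes differed between the groups. Capitals mark a match to TGACGTNA (the cyclic AMP response element with 1 free base), TGANTCA (AP-1) or TTCNNNGAA (STAT), searched on both strands. The sequences run 5′ to 3′ on the strand of the gene.
*Bdnf* chr2:109674450-109674749, plus strand: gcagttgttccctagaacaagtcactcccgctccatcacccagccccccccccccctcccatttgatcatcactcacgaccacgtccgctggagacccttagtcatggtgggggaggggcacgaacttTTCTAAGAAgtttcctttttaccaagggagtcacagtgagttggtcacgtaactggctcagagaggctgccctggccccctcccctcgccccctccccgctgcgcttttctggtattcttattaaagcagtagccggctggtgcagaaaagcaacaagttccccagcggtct
*Bdnf* chr2:109676782-109677081, plus strand: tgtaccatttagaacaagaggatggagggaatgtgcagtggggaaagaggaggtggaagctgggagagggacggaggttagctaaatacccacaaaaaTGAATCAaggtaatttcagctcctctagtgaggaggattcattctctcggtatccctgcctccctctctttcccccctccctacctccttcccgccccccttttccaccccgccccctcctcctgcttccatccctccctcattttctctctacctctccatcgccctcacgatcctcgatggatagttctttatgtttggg
*Bdnf* chr2:109692186-109692485, plus strand: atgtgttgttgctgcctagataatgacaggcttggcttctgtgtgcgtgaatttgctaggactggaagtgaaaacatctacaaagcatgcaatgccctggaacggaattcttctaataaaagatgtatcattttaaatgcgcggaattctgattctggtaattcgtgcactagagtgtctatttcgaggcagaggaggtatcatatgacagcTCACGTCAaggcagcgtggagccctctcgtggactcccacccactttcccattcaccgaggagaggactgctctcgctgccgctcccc
*Ntrk2* chr13:58806319-58806618, plus strand: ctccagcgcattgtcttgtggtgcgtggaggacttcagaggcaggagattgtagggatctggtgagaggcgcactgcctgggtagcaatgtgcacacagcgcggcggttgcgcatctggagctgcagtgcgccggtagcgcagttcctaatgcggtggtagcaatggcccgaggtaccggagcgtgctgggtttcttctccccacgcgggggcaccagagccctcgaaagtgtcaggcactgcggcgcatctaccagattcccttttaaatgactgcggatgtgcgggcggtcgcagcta
*Ngfr* chr11:95587649-95587948, minus strand: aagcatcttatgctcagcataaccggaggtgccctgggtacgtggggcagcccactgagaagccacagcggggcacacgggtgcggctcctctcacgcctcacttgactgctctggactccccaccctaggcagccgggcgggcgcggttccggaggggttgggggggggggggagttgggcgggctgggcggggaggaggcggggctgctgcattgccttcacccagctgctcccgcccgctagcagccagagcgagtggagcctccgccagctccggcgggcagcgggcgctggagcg
The TGACGTNA letters lie 38 bases before their *Bdnf* start, the AP-1 letters 152 bases before theirs and the STAT letters 122 bases before theirs. Each of these motifs was in 1 of the 14 windows of the 8 genes, and the full element TGACGTCA was in 0 of them. Over all 32851 windows of the table the shares were 2.93% for TGACGTNA, which includes the 1.79% with the full element TGACGTCA, 7.81% for TGANTCA and 8.30% for TTCNNNGAA. The *Ntrk2* and *Ngfr* windows had 23 CG dinucleotides each and the *Bdnf* windows 2 to 13, where the median window of the table had 7. A match of letters is a description of the window only.

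The values are FPKM, fragment numbers scaled by gene length and library size, and the reads behind each value were recovered from the steps between values. Depth ran from 21343389 to 26832535 reads in the NL retinas and from 18965090 to 23378090 reads in the LD retinas. The groups were compared in limma on log2(FPKM + 0.1), with Benjamini-Hochberg adjustment over all 24508 genes. A gene counted as changed when its adjusted p was below 0.01 and its level differed by more than 2-fold, the thresholds of the study. Means are given ± SD over the 5 retinas of a group and log2 fold changes ± standard error. In 3 pairs of retinas (LD-4 with LD-6, NL-5 with NL-7, LD-1 with LD-7) the reads differed less than in the other 17 pairs within a group, with a chi-square of 2.52 to 3.41 per gene against 10.9 to 38.6. The study calls the samples biological replicates, and all were kept as separate samples. Markers of the neural retina were present in all samples: the 7 rod markers summed to 5419 to 6338 FPKM under NL. All 7 fell by these thresholds after LD, as 2.37% of all genes tested did, to sums of 834.5 to 1748 FPKM. From the RNA of whole retinas alone, fewer cells of a type and less RNA per cell cannot be told apart. By histology, the study saw no obvious degeneration in BALB/c retinas after the same light level and duration, and significant degeneration after longer exposure. Cell numbers in the sequenced retinas were not tested.

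None of the 8 genes changed by the thresholds of the study in limma, where 6.51% of all genes tested did (4.13% higher and 2.37% lower after LD). The count was also 0 of 8 with limma-voom on the recovered reads. At an unadjusted p under 0.05, 5 of the 8 genes differed in limma, against 38.2% of all genes. At an adjusted p under 0.05 with no minimum fold, 4 of the 8 differed, against 27.8% of all genes: *Bdnf*, *Ntrk2* and *Ngfr* were higher after LD and *Sort1* was lower. Over all genes 14.5% were higher and 13.4% lower at this limit. With limma-voom 5 of 8 did, *Ntrk3* being the other. The log2 fold changes of the 8 genes ran from -0.28 to 0.80 with a median of 0.38, and the median over all genes tested was -0.01. The LD and NL values did not overlap in 2 of the 8 genes, *Ntrk2* and *Sort1*, and in 22.4% of all genes.

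**Figure D1:**
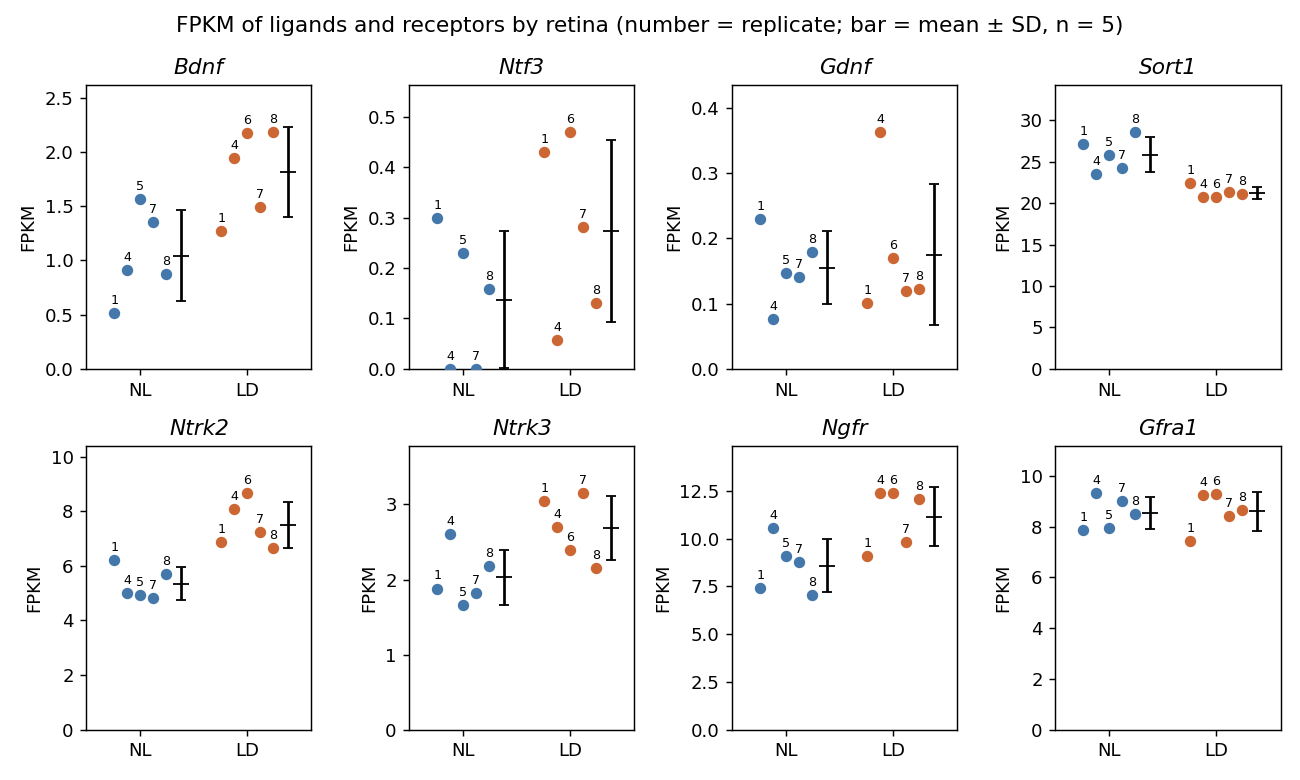
FPKM of the 3 ligand and 5 receptor genes in each NL (blue) and LD (orange) retina, 1 panel per gene with its own axis from 0; numbers are replicate numbers and black bars are mean ± SD (n = 5). *Ntrk2* is above its highest NL value in all 5 LD retinas and *Sort1* below its lowest, while the groups overlap for the other 6 genes.

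*Bdnf*, on chromosome 2 from 109674700 to 109727007 (GRCm38), encodes the main ligand of TrkB. Under NL it was at 0.511 FPKM in NL-1, 0.909 in NL-4, 1.57 in NL-5, 1.36 in NL-7 and 0.873 in NL-8. After LD it was at 1.27 FPKM in LD-1, 1.94 in LD-4, 2.18 in LD-6, 1.49 in LD-7 and 2.18 in LD-8. The groups overlapped: LD-1 and LD-7 lay within the NL range, and the other 3 LD retinas lay above it. The mean went from 1.04 ± 0.420 FPKM to 1.81 ± 0.413 FPKM, resting on 68 to 198 reads (NL) and 193 to 303 reads (LD) in a retina. The log2 fold change was 0.80 ± 0.27 (95% interval 0.20 to 1.40) with an adjusted p of 0.0497 in limma. The two-sided exact permutation test over the retinas gave p = 0.0397, where 0.00794 is the smallest that 5 against 5 retinas allow. The adjusted p of *Bdnf* was 0.05 or more in 15 of 24 alternatives, over which it ranged from 0.0242 to 0.108. It was 0.0588 to 0.108 when any one of NL-1, NL-4, NL-8, LD-4, LD-6, LD-7 or LD-8 was left out. *Bdnf* was among the genes that the study chose to display from these samples, as was *Ntrk2*, so their direction is not independent evidence. An antisense gene, *Gm45346*, overlaps *Bdnf* and had at most 10 reads in a retina.

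*Ntf3*, the gene of neurotrophin 3 on chromosome 6 from 126101412 to 126166910, was close to the limit of detection. NL-4 and NL-7 had 0 reads, which allows up to 3, and NL-1, NL-5 and NL-8 had 11, 8 and 7. The LD retinas had 18, 2, 18, 11 and 5 reads in the order LD-1, LD-4, LD-6, LD-7 and LD-8. The levels were 0.138 ± 0.135 FPKM (NL) and 0.274 ± 0.180 FPKM (LD), and the groups overlapped. The log2 fold change of *Ntf3* was 0.72 with a 95% interval of -0.40 to 1.85 (adjusted p = 0.333, limma), which includes differences of either sign. With the pseudocount of 0.1 replaced by 0.01 it was 1.77, and by 1 it was 0.16.

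*Gdnf*, on chromosome 15 from 7810846 to 7837575, encodes the ligand of GFRA1 and RET. It had 18, 6, 11, 11 and 17 reads in NL-1, NL-4, NL-5, NL-7 and NL-8. It had 9, 27, 14, 10 and 10 reads in LD-1, LD-4, LD-6, LD-7 and LD-8. LD-4 stood above every other retina, and the remaining LD retinas lay inside the NL range. The means were 0.155 ± 0.0558 and 0.175 ± 0.108 FPKM, with a log2 fold change of 0.07 and a 95% interval of -0.53 to 0.66 (adjusted p = 0.889, limma). Without LD-4 the log2 fold change of *Gdnf* was -0.14, and without NL-4 it was -0.06.

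*Ntrk2*, the gene of TrkB on chromosome 13 from 58806569 to 59133970, had the lowest adjusted p of the 8. It was at 6.23 FPKM in NL-1, 5.02 in NL-4, 4.93 in NL-5, 4.82 in NL-7 and 5.72 in NL-8. In the LD retinas it was at 6.87 FPKM in LD-1, 8.09 in LD-4, 8.67 in LD-6, 7.23 in LD-7 and 6.67 in LD-8. All 5 LD values lay above all 5 NL values, with the narrowest gap between LD-8 and NL-1. Every LD retina lay above every NL retina in 11.8% of all genes tested. The mean went from 5.34 ± 0.608 to 7.51 ± 0.848 FPKM, with 1930 to 2845 reads under NL and 2863 to 3742 after LD. The log2 fold change was 0.48 ± 0.09 (95% interval 0.27 to 0.69) with an adjusted p of 0.00338 in limma, a 1.40-fold higher level. The two-sided exact permutation test gave p = 0.00794. The interval ends below 2-fold, and over 24 alternatives the log2 fold change stayed between 0.40 and 0.61. The adjusted p of *Ntrk2* ranged from 8.95e-04 to 0.0700 and was above 0.05 in 1 of them. The table gives 1 value for the gene, and GENCODE lists 10 transcripts, so the full-length kinase and the truncated forms of TrkB, which lack the kinase, were not separated.

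*Ntrk3*, the gene of TrkC on chromosome 7 from 78175959 to 78738012, did not reach an adjusted p of 0.05. The NL values were 1.88 FPKM in NL-1, 2.60 in NL-4, 1.66 in NL-5, 1.82 in NL-7 and 2.18 in NL-8. The LD values were 3.05 FPKM in LD-1, 2.70 in LD-4, 2.39 in LD-6, 3.15 in LD-7 and 2.15 in LD-8. The groups overlapped: LD-6 and LD-8 lay within the NL range, and the other 3 LD retinas above it. The means were 2.03 ± 0.371 and 2.69 ± 0.425 FPKM, or a log2 change of 0.39 ± 0.14 (95% interval 0.07 to 0.71, adjusted p = 0.0674 in limma; exact permutation p = 0.0397). The adjusted p was 0.0269 without NL-4 and 0.0389 without LD-8, 0.0324 with limma-voom, 0.0334 with TPM and 0.0189 without the factor per retina. Over all alternatives the adjusted p of *Ntrk3* ranged from 0.0189 to 0.316. GENCODE lists 20 transcripts of *Ntrk3*, which were not separated either.

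*Ngfr*, on chromosome 11 from 95568818 to 95587735, encodes p75, a receptor of the tumour necrosis factor receptor family that binds all neurotrophins. It was at 7.42 FPKM in NL-1, 10.6 in NL-4, 9.09 in NL-5, 8.78 in NL-7 and 7.06 in NL-8. After LD it was at 9.09 FPKM in LD-1, 12.4 in LD-4, 12.4 in LD-6, 9.84 in LD-7 and 12.1 in LD-8. LD-1 and LD-7 lay within the NL range, and LD-4, LD-6 and LD-8 lay above it. The mean was 8.59 ± 1.41 FPKM (NL) and 11.2 ± 1.57 FPKM (LD), on 547 to 774 and 764 to 953 reads. The log2 fold change was 0.38 ± 0.13 (95% interval 0.10 to 0.66) with an adjusted p of 0.0476 in limma and an exact permutation p of 0.0397. The adjusted p of *Ngfr* was 0.05 or more in 13 of 24 alternatives, with a range of 0.0119 to 0.132. It was 0.0651 to 0.106 when any one of NL-1, NL-5, NL-7, NL-8, LD-4, LD-6 or LD-8 was left out.

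*Sort1*, on chromosome 3 from 108284082 to 108361511, encodes sortilin, a sorting receptor that partners p75 for proneurotrophins and also carries other cargo. It had the highest level of the 8 genes in both groups. Under NL it was at 27.1 FPKM in NL-1, 23.5 in NL-4, 25.9 in NL-5, 24.2 in NL-7 and 28.5 in NL-8. After LD it was at 22.5 FPKM in LD-1, 20.7 in LD-4, 20.7 in LD-6, 21.4 in LD-7 and 21.1 in LD-8. All 5 LD values were below all 5 NL values, as in 10.6% of all genes tested, and the LD retinas lay closer together than the NL retinas. The mean went from 25.9 ± 2.07 to 21.3 ± 0.725 FPKM, on 3779 to 5574 and 3174 to 4147 reads. The log2 fold change was -0.28 ± 0.06 (95% interval -0.40 to -0.15) with an adjusted p of 0.00406 in limma and an exact permutation p of 0.00794. This result depended on the scaling between retinas. Without the factor per retina that the authors' FPKM carries, the log2 fold change of *Sort1* was -0.14 (adjusted p = 0.0665), and with TPM it was -0.17 (adjusted p = 0.0601), the range over the alternatives being 0.00253 to 0.0665. These scalings moved the median of all genes by 0.12 and 0.11, and relative to that median *Sort1* was at -0.25 and -0.27, against -0.26 in the values as deposited.

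*Gfra1*, on chromosome 19 from 58235604 to 58455909, encodes the co-receptor that presents GDNF to RET. Its NL values were 7.87 to 9.33 FPKM with a median of 8.50, and its LD values were 7.44 to 9.31 FPKM with a median of 8.66. The ranges nearly coincided. The log2 fold change was 0.01 with a 95% interval of -0.15 to 0.17 (adjusted p = 0.936, limma). With 885 to 1201 reads per NL retina, with the values as deposited this interval leaves room for differences of at most 0.17 on the log2 scale. The sign of this value changed in 7 of 24 alternatives.

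**Figure D2:**
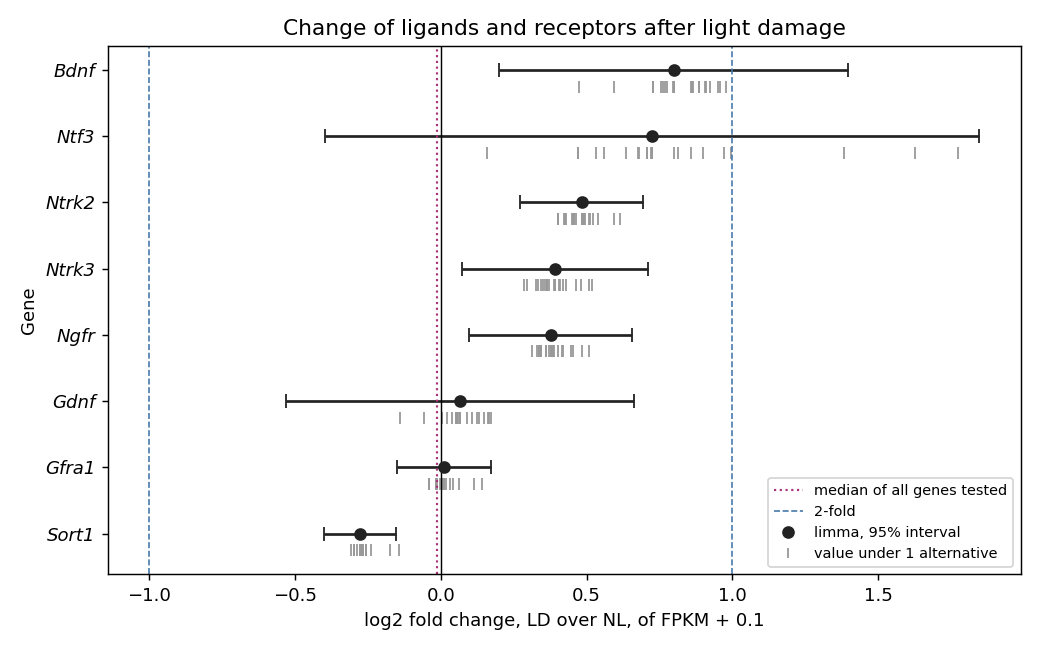
Log2 fold change of LD over NL (x axis) for the 8 genes (y axis), as limma estimate with 95% interval (black) and the value under each alternative (grey ticks); the dotted line is the median of all genes tested and dashed lines mark 2-fold. The intervals of *Bdnf*, *Ntrk2*, *Ntrk3* and *Ngfr* lie above 0 and that of *Sort1* below it, and no estimate reaches 2-fold; *Ntf3* does in at least 1 alternative.

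On the FPKM scale, which is per length, the order of levels under NL was *Sort1*, *Ngfr*, *Gfra1*, *Ntrk2*, *Ntrk3*, *Bdnf*, *Gdnf* and *Ntf3*. The ranges of *Ngfr* and *Gfra1* overlapped, as did those of *Gdnf* and *Ntf3*, and the other neighbours in the order did not overlap. After LD the order was the same except that *Ntf3* came before *Gdnf*. In the LD retinas the ranges of *Gfra1* and *Ntrk2* and those of *Ntrk3* and *Bdnf* overlapped as well. The length by which the authors divided equals the union of all annotated exons, 19292 bases for *Ntrk2* and 30170 for *Ntrk3* against 3446 for *Ngfr*. Where shorter transcripts dominate, FPKM understates the level of *Ntrk2* and *Ntrk3* against the other genes. The same length was used for both groups. The LD to NL comparison of 1 gene is therefore free of this only where its mix of transcripts stays the same, which was not tested.

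The retinas of the close pairs took neighbouring places for most members. LD-1 and LD-7 had the lowest *Bdnf*, *Ngfr*, *Gfra1* and *Gdnf* of the LD retinas and the highest *Sort1* and *Ntrk3*. LD-4 and LD-6 had the highest *Ntrk2*, *Ngfr*, *Gfra1* and *Gdnf* and the lowest *Sort1*. The summed rod markers were 1691 and 1401 FPKM in LD-1 and LD-7, 834.5 and 893 FPKM in LD-4 and LD-6 and 1748 FPKM in LD-8. Among the NL retinas, the close pair NL-5 and NL-7 took neighbouring places except for *Ntf3* and *Gfra1*. Retinas outside the close pairs could line up as well. NL-1 and NL-8, with a chi-square of 11.6 per gene, had the lowest *Bdnf* and *Ngfr* and the highest *Sort1*, *Ntrk2* and *Gdnf*. With the close pairs averaged, leaving 4 NL and 3 LD samples, *Ntrk2* had an adjusted p of 0.0424 and *Sort1* of 0.0334 in limma, while *Bdnf* (0.0772) and *Ngfr* (0.117) were above 0.05.

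Ratios of related genes within a retina depend little on the scaling between retinas. The ratio of *Ntrk2* to *Ntrk3* was 1.90 to 3.20 under NL and 2.22 to 3.52 after LD. The ratio of *Ngfr* to *Ntrk2* was 1.19 to 2.09 under NL and 1.32 to 1.80 after LD. The groups overlapped for both. On the log2 scale the difference of LD minus NL was 0.09 for *Ntrk2* to *Ntrk3* (interval -0.35 to 0.54, exact permutation p = 0.627). It was -0.11 for *Ngfr* to *Ntrk2* (interval -0.51 to 0.35, exact permutation p = 0.540). For *Bdnf* to *Ntf3* it was 0.07 (interval -1.80 to 1.61, exact permutation p = 0.929), a wide interval beside the few reads of *Ntf3*. Adjusted over the 3 ratios each p of the exact tests was 0.929.

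**Figure D3:**
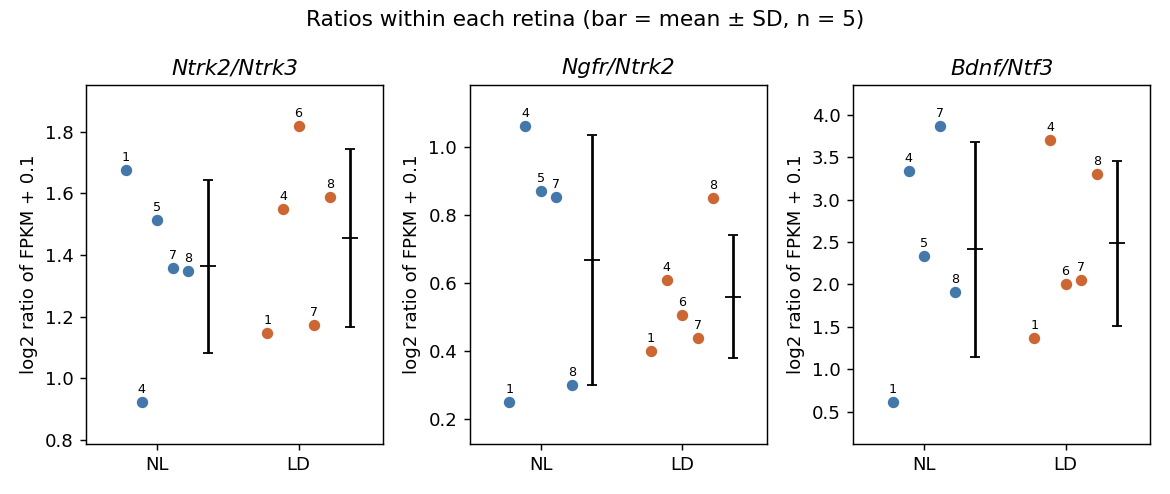
Log2 ratio of FPKM + 0.1 within each retina (y axis) for *Ntrk2* to *Ntrk3*, *Ngfr* to *Ntrk2* and *Bdnf* to *Ntf3*, for NL (blue) and LD (orange) retinas with replicate numbers; bars are mean ± SD (n = 5). NL and LD overlap in all 3 panels, and the spread is widest for *Bdnf* to *Ntf3*.

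The other genes of these pathways were taken from 5 lists of 48 genes in all, of which 45 were tested. By the thresholds of the study 3 rose and 0 fell (4.13% and 2.37% of all genes), and at an adjusted p under 0.05 in limma 12 were higher, 6 were lower and 27 passed neither way, where 14.5% of all genes were higher and 13.4% lower. Their median log2 fold change was 0.10. None of the 3 other ligands tested changed by those thresholds (6.51% of all genes), and at an adjusted p under 0.05 in limma 0 were higher and 1 was lower. The neurturin gene *Nrtn* had the highest level of these ligands, 6.80 ± 0.795 FPKM (NL) and 6.54 ± 0.794 FPKM (LD) (adjusted p = 0.731, limma). *Pspn*, the gene of persephin, was chosen for mention after its value was seen. It was at 2.64 ± 0.724 FPKM (NL) and 1.496 ± 0.259 FPKM (LD), or a log2 change of -0.76 (adjusted p = 0.00874, limma). This rests on few reads, 21 to 39 in an NL retina and 13 to 18 in an LD retina. The adjusted p of *Pspn* in limma ranged from 0.00659 to 0.0515 over the alternatives.

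Of 9 other receptor genes tested, none changed by the thresholds of the study (6.51% of all genes). At an adjusted p under 0.05 in limma 0 were higher and 1 was lower (14.5% and 13.4% of all genes). *Ncam1*, a cell adhesion molecule that can also bind GDNF with GFRA1, had the highest level, 41.8 ± 1.53 FPKM (NL) and 39.6 ± 2.93 FPKM (LD) (adjusted p = 0.310, limma). *Ret*, the kinase through which GDNF signals, had a log2 fold change of 0.04 with a 95% interval of -0.26 to 0.35, and was named after its value was seen. The same holds for *Gfra2*. *Gfra2*, the neurturin co-receptor, was at 9.70 ± 0.783 FPKM and 7.81 ± 0.355 FPKM, or a log2 change of -0.31 (adjusted p = 0.00380, limma). Without the factor per retina the value of *Gfra2* was -0.17 (adjusted p = 0.0508, range over the alternatives 0.00276 to 0.0612), and relative to the median of all genes it was -0.28 against -0.29.

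None of 16 adaptor genes of the Trk and RET kinases changed by the thresholds (6.51% of all genes). At an adjusted p under 0.05 in limma 6 were higher and 2 were lower (14.5% and 13.4% of all genes). *Gab1*, a docking protein of receptor kinases named after its value was seen, was at 4.92 ± 0.509 FPKM (NL) and 9.30 ± 1.38 FPKM (LD), a log2 difference of 0.90 ± 0.11 (adjusted p = 1.51e-04, limma). It passed 2-fold with TPM (1.01) and without the factor per retina (1.03), and relative to the median of all genes it was at 0.92 in both, against 0.91 in the values as deposited. *Kidins220*, a scaffold of Trk receptors, had the highest level and was at 49.6 ± 1.46 FPKM (NL) and 43.5 ± 3.07 FPKM (LD), or a log2 change of -0.19 (adjusted p = 0.0201, limma). Without the factor per retina the value of *Kidins220* was -0.06 (adjusted p = 0.491, range over the alternatives 0.00896 to 0.491), but relative to the median of all genes, which this scaling moves, it was -0.17 against -0.18. Of 8 partner genes of p75, *Arhgdia* and *Nradd* rose by the thresholds of the study and none fell (4.13% and 2.37% of all genes). At an adjusted p under 0.05 in limma 3 were higher and 1 was lower (14.5% and 13.4% of all genes). These include *Ripk2* (log2 fold change 0.43, adjusted p = 0.0102, limma) and *Rtn4r* (-0.44, adjusted p = 0.0371, limma), both named after their values were seen. *Arhgdia*, an inhibitor of small GTPases that p75 can displace, went from 36.2 ± 0.195 to 78.6 ± 13.6 FPKM, or a log2 change of 1.10 ± 0.11 (adjusted p = 3.48e-05 in limma). *Nradd*, a death domain protein related to p75, went from 1.01 ± 0.265 to 2.18 ± 0.494 FPKM, or a log2 change of 1.04 ± 0.20 (adjusted p = 0.00267 in limma). It was under 2-fold without NL-1 (0.97), NL-4 (0.93) or LD-6 (0.93) and with a pseudocount of 1 (0.66), and it missed the limit on p with the close pairs averaged (adjusted p = 0.0181, range over the alternatives 0.00126 to 0.0267). *Maged1* had the highest level of this list, 84.1 ± 2.47 FPKM (NL) and 82.2 ± 4.08 FPKM (LD) (adjusted p = 0.640, limma).

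Of 9 genes of proneurotrophin processing that were tested, *Plat* rose by the thresholds of the study and none fell (4.13% and 2.37% of all genes). At an adjusted p under 0.05 in limma 3 were higher and 1 was lower (14.5% and 13.4% of all genes). *Plat*, the gene of tissue plasminogen activator, went from 2.42 ± 0.460 to 7.52 ± 1.74 FPKM, or a log2 change of 1.58 ± 0.20 (adjusted p = 1.85e-04 in limma). *Cpe*, carboxypeptidase E, which takes part in sorting and trimming prohormones, had the highest level and was at 486 ± 76.4 FPKM (NL) and 288 ± 48.3 FPKM (LD), or a log2 change of -0.76 (adjusted p = 0.00243, limma), under 2-fold. The adjusted p of *Cpe* in limma ranged from 5.05e-04 to 0.0614 over the alternatives. *Furin*, the main cleaving enzyme of proneurotrophins, was named after its value was seen and had a log2 fold change of -0.02 (adjusted p = 0.775, limma).

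**Figure D4:**
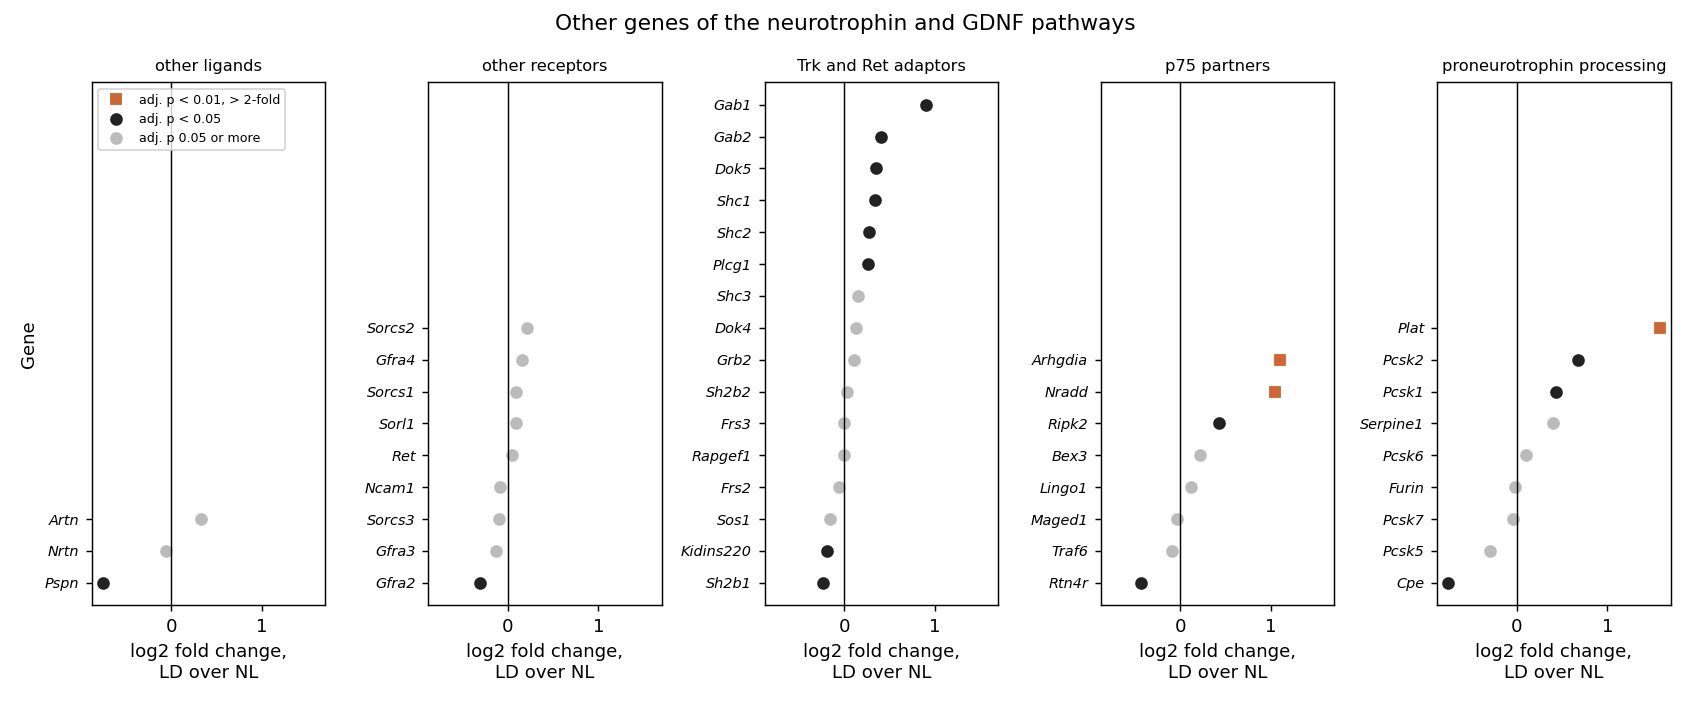
Log2 fold change of LD over NL (x axis) of the 45 tested genes of the 5 other lists (1 panel each, genes on the y axis); orange squares pass an adjusted p under 0.01 and 2-fold, black circles only an adjusted p under 0.05 and grey circles neither. The 3 squares are *Plat*, *Arhgdia* and *Nradd*, all to the right of 0.

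Markers of the other retinal cell types moved unevenly. Over all genes tested, 4.13% rose and 2.37% fell by the thresholds of the study. At an adjusted p under 0.05 in limma 14.5% were higher and 13.4% lower, and the groups did not overlap in 22.4% of single genes. None of the 8 ganglion cell markers and none of the 7 amacrine markers had an adjusted p under 0.05, and the ganglion cell sums were 243 to 287 FPKM (NL) and 236 to 271 FPKM after LD. Of 9 Muller glia markers, 2 rose (*Vim* and *Cp*) and 1 fell (*Glul*, glutamine synthetase), and the summed level went from 1417 to 1636 FPKM under NL to 986 to 1334 FPKM after LD. Without *Glul*, whose mean went from 711 to 165 FPKM, the sum of the other 8 was 777 to 881 FPKM (NL) and 821 to 1164 FPKM (LD), and 2 more markers, *Sox9* (log2 fold change 0.79) and *Slc1a3* (0.50), were higher at an adjusted p under 0.05. None of 7 bipolar and 5 horizontal cell markers changed by the thresholds. At an adjusted p under 0.05 in limma, 1 bipolar marker was lower (*Otx2*, log2 fold change -0.66), and of the horizontal cell markers 1 was higher (*Onecut2*, 0.88) and 2 were lower (*Sept4*, -0.68, and *Lhx1*, -0.55). The horizontal cell sums of 51.8 to 74.8 FPKM (NL) and 37.0 to 48.0 FPKM (LD) did not overlap, but *Sept4* alone went from a mean of 45.0 to 27.9 FPKM. Of 4 astrocyte markers 2 rose (*Gfap* and *Aldh1l1*). The other 2 did not pass 0.05: *S100b* (log2 fold change -0.47, adjusted p = 0.0674, limma) and *Pax2* (0.36, adjusted p = 0.354, limma). The sums of the 4 were 15.2 to 34.1 FPKM (NL) and 78.4 to 149.6 FPKM (LD), and *Gfap* alone went from a mean of 11.4 to 98.7 FPKM. The study also saw GFAP in Muller glia, in another strain under longer light exposure, so *Gfap* does not mark astrocytes alone. Of 8 microglia and myeloid markers 5 rose. *Csf1r* was higher only at an adjusted p under 0.05 (log2 fold change 0.74, adjusted p = 0.0412, limma). The other 2 did not pass 0.05: *P2ry12* (-0.74, adjusted p = 0.122, limma) and *Tmem119* (0.22, adjusted p = 0.528, limma). The sums of the 8 were 16.5 to 27.3 FPKM (NL) and 30.8 to 76.1 FPKM (LD), and *C1qa* alone went from a mean of 10.1 to 37.3 FPKM. None of 8 vascular markers changed by the thresholds. At an adjusted p under 0.05, 1 was higher (*Kdr*, log2 fold change 0.70, adjusted p = 0.00876, limma) and 7 passed neither way. Their sums of 41.6 to 52.7 FPKM (NL) and 57.1 to 94.97 FPKM (LD) did not overlap, but *Kdr* alone went from a mean of 30.0 to 49.8 FPKM. None of 8 pigment epithelium markers had an adjusted p under 0.05, with sums of 50.5 to 153 FPKM and 58.8 to 111 FPKM, and the 7 lens markers summed to under 1 FPKM in each retina. In none of these lists was a marker at 0 in all retinas, and 1 lens marker had at most 3 reads in each. The part of these shifts, and of the fall of the rod markers, in the differences of *Bdnf*, *Ntrk2*, *Ngfr* and *Sort1* was not tested.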

How the data were processed

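The data are FPKM per gene and retina in a single table as deposited, normalized by a sequencing company. The submitters' processing notes name Bowtie2 2.0.6, TopHat2 2.0.9 and the build mm8, but gene positions are those of GRCm38: 53499 of the 54532 genes, all 8 members included, have the start and end of GENCODE M21. The counting program and its use of strand are not given in the sources used here. Multiplying FPKM by gene length gave whole steps (within 0.01 read) for every value, and hence the reads and, against their sum, a factor of 0.951 to 0.968 (NL) and 1.041 to 1.069 (LD) in the library size.

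The 24508 genes reaching 0.1 FPKM in 5 or more retinas were tested on log2(FPKM + 0.1) with limma 3.58.1 (intensity trend, R 4.3.3), without a block. Fold changes on this scale understate those of low genes. Groups and numbers come from the sample labels, and p-values measure the spread between these samples. Exact two-sided permutation tests used all 252 splits, and intervals of ratios hold the shifts such a test does not reject at 0.05 (Python 3.11.15, numpy 2.4.6, pandas 2.3.3, matplotlib 3.10.9). Simulated data, with larger changes than those of the 8 genes and without close pairs, served to test the fit. They do not bear on changes of the size seen in these genes. The alternatives changed the pseudocount, filter, scaling, trend, test, block and retinas included, and 1 (*Xist* reads as covariate) was added after the values were seen. All 8 members are named, as are pathway genes past the thresholds and the most abundant gene of each list. For each member the protein-coding gene most alike over the 10 retinas is also named. Members and lists were chosen with earlier results of these data known. A few genes of the lists are not reported here and were left out of list counts and sums. Read numbers carry counting error only.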

Additional observations from a re-analysis of the deposited data

Results flagged for a closer look

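In 32 sets of 5 retinas that were screened for a value apart from the rest, 1 held such a value, against 1.6 by chance. In LD-4, *Gdnf* reached 0.362 FPKM (27 reads), with 0.1005 to 0.170 FPKM across the remaining LD retinas.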

How the results depend on the processing

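The number of the 8 genes changed by the thresholds of the study was 0 under all 24 alternatives that kept these thresholds, and 4 with an adjusted p under 0.05 and no minimum fold. The number at an adjusted p under 0.05, 4 as reported, was 2 without a filter, with quantile normalization, without the trend, with the close pairs averaged and with the retinas of shared replicate numbers only. It was 2 to 4 with 1 retina left out (2 without NL-1, NL-8, LD-4 or LD-6) and at most 5 over all alternatives. The cause was not tested. Over all genes, 1595 changed as reported, 816 with a pseudocount of 1, 808 with the replicate block and 6818 with an adjusted p under 0.05 and no minimum fold.

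With the replicate number as a block over the 4 shared numbers, 1 of the 8 genes had an adjusted p under 0.05. No source ties the numbers to a litter or day, and same-numbered retinas had correlations of deviations of 0.062, 0.074, -0.030 and -0.082 for the numbers 1, 4, 7 and 8, so they were not taken as pairs, and not every retina was most like its own number. Under the block *Ntrk2* had a log2 fold change of 0.40 (adjusted p = 0.0700, range over the alternatives 8.95e-04 to 0.0700). *Nradd* missed the limit on p under it (log2 fold change 1.03, adjusted p = 0.0267).

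The *Gfra1* value was -0.042 with and without the block in those retinas, -0.0022 with quantile normalization and -0.018 to 0.062 with 1 retina left out. *Gdnf* was at -0.14 to 0.17 with 1 retina left out. The difference of *Bdnf* to *Ntf3* was -0.91 with a pseudocount of 0.01 and -0.38 to 0.44 with 1 retina left out, and that of *Ntrk2* to *Ntrk3* was -0.018 to 0.17. No ratio had an exact permutation p under 0.05 in any alternative. With *Xist* reads as covariate, present in 2 of 5 retinas of each group and added after the values were seen, the adjusted p of *Bdnf* was 0.0602 (range over the alternatives 0.0242 to 0.108). Depth limits *Ntf3* and *Gdnf*, with at most 18 and 27 reads per retina.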

Other observations

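Over the log2 values of the 10 retinas, the protein-coding gene most like *Ntrk2* among 12427 genes averaging 1 FPKM or more was *Pmp22*, a myelin protein gene (Pearson r = 0.987). For *Bdnf* it was *Gadd45a*, a growth arrest and DNA damage gene (r = 0.965). For *Ngfr* it was *B3gat3* (r = 0.979), for *Sort1* it was *Ncbp2* (r = 0.977), for *Ntrk3* it was *Zdhhc14* (r = 0.969) and for *Gfra1* it was *Dpp6* (r = 0.956). For *Gdnf* and *Ntf3*, which rest on few reads, it was *Otulinl* (r = 0.939) and *Snx2* (r = 0.888). These values are the highest of many, include the difference between the groups, and describe the 10 retinas only.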
